A study of Homo sapiens with 4 samples.

Results

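Forkhead genes encode transcription factors that bind DNA through a shared winged-helix domain, and 10 of them with known roles in pluripotent cells, mesoderm, endoderm and blood were followed through the hematopoietic differentiation of BC1 cells, a human induced pluripotent stem cell line. The 10 genes were FOXA1, FOXA2, FOXC1, FOXC2, FOXD1, FOXD3, FOXF1, FOXF2, FOXO1 and FOXO3, chosen by their symbols. Each had 1 row in the deposited table, which listed 58274 gene IDs and 49 forkhead genes in all. Undifferentiated BC1 cells were compared with APLNR+ mesoderm cells sorted at day 2, hemogenic endothelial cells (HEPs) sorted as CD31+CD34+ at day 5 and, at day 8, with hematopoietic progenitor cells (HPCs) sorted as CD43+. Differentiation began with 40 ng/ml activin A and 50 ng/ml BMP4 for 2 days and went on with 40 ng/ml VEGF and 50 ng/ml bFGF for 6 days. These doses are those of the labels, and the methods of the study give the doses of activin A and BMP4 the other way round. All 4 populations came from the same line, with no genetic change named in the labels, and each population was measured in 1 library. No test between populations was therefore possible. Levels are given as FPKM (mapped fragments scaled by transcript length and by library depth), which sets genes of different length on 1 scale.

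The FOXA genes are pioneer factors of endoderm that open chromatin for other factors. FOXF genes act in splanchnic and lateral plate mesoderm, where Hedgehog signals control them, and FOXC genes act in paraxial and cardiovascular mesoderm and, with ETS factors, at endothelial enhancers. FOXD3 is a factor of pluripotent cells and the neural crest, FOXD1 of stromal mesenchyme, and FOXO proteins are held out of the nucleus by AKT when growth factors are present and act in stress resistance and stem cell quiescence.

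The libraries held between 19500000 and 23400000 mapped fragments, as recovered from the spacing of low FPKM values, of which between 92.4% and 94.4% came out as whole fragments to within 0.1. Each sorting marker was high in its population: APLNR stood at 1073 FPKM in APLNR+ cells against 0.782 FPKM in BC1 cells, PECAM1 and CD34 at 93.1 and 102 FPKM in HEPs against 0.460 and 0.645 FPKM in APLNR+ cells, and SPN, which encodes CD43, at 92.4 FPKM in HPCs against 11.7 FPKM in HEPs. The markers were not confined to these populations. PECAM1 was higher still in HPCs, at 126 FPKM, where CD34 was at 42.6 FPKM, and APLNR was at 209 FPKM in HEPs. POU5F1, a pluripotency factor, was still at 573 FPKM in APLNR+ cells. A gene was said to rise or fall where log2(FPKM + 1) differed by at least 1 between consecutive populations. Folds are ratios of FPKM with 95% Clopper-Pearson intervals that cover counting error only and not the spread between cultures. In these bulk libraries fewer cells of a type and less RNA per cell cannot be told apart.

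Among the 10 genes, a different one led in each population. Summed over the 10 genes, the level was 62.4 FPKM in BC1 cells, 75.3 FPKM in APLNR+ cells, 33.6 FPKM in HEPs and 17.9 FPKM in HPCs. FOXD3 made up 74.0% of the sum in BC1 cells, FOXF1 49.4% in APLNR+ cells, FOXO1 34.6% in HEPs and FOXO3 62.7% in HPCs. The number of the 10 genes at 1 FPKM or more was 3, 6, 7 and 2 in the same order, highest in HEPs and lowest in HPCs.

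**Figure D1:**
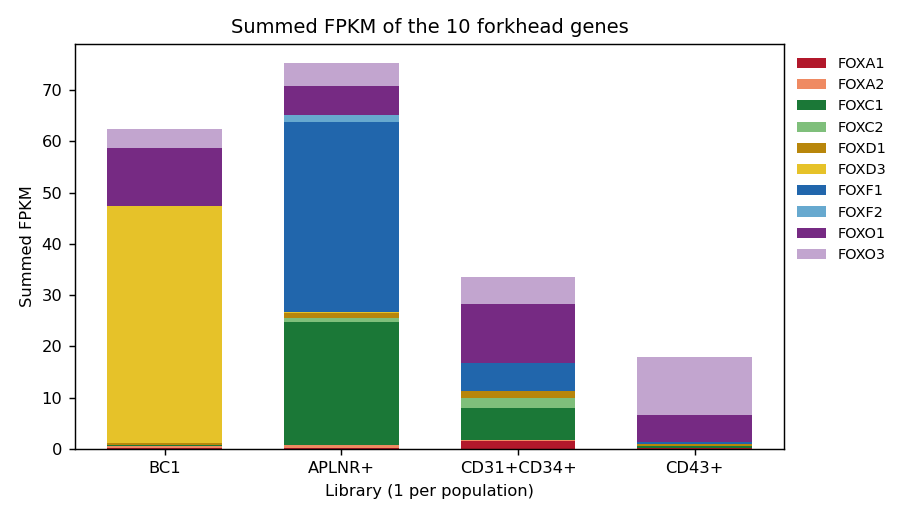
Summed FPKM (vertical axis) of the 10 forkhead genes in each library (horizontal axis, 1 library per population), with a colour for each gene. The BC1 bar is mostly FOXD3, the APLNR+ bar mostly FOXF1 and FOXC1, and the CD43+ bar mostly FOXO3 and FOXO1.

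Counted over the 9 genes that reached 1 FPKM in some library, all but FOXA2, the step from BC1 to APLNR+ cells had 3 genes that rose (FOXC1, FOXF1 and FOXF2) and 1 that fell (FOXD3), while 9.15% of the 17137 genes past the same filter rose and 9.32% fell. From APLNR+ cells to HEPs, 1 gene rose (FOXA1) and 3 fell (FOXC1, FOXF1 and FOXF2), against 13.0% of all genes that rose and 11.4% that fell. From HEPs to HPCs no gene rose and 4 fell (FOXA1, FOXC1, FOXC2 and FOXF1), against 7.63% and 13.5%, although FOXO3 passed as rising with a pseudocount of 0.1 or 0.01 or with upper-quartile scaling. A gene that passed the filter through a single population had to differ elsewhere, so these counts describe the set and are no test of it. The median change of the 9 genes was 0.58, 0.20 and -0.97 on the log2 scale at the 3 steps, beside 0.00, 0.01 and -0.08 over all genes.

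**Figure D2:**
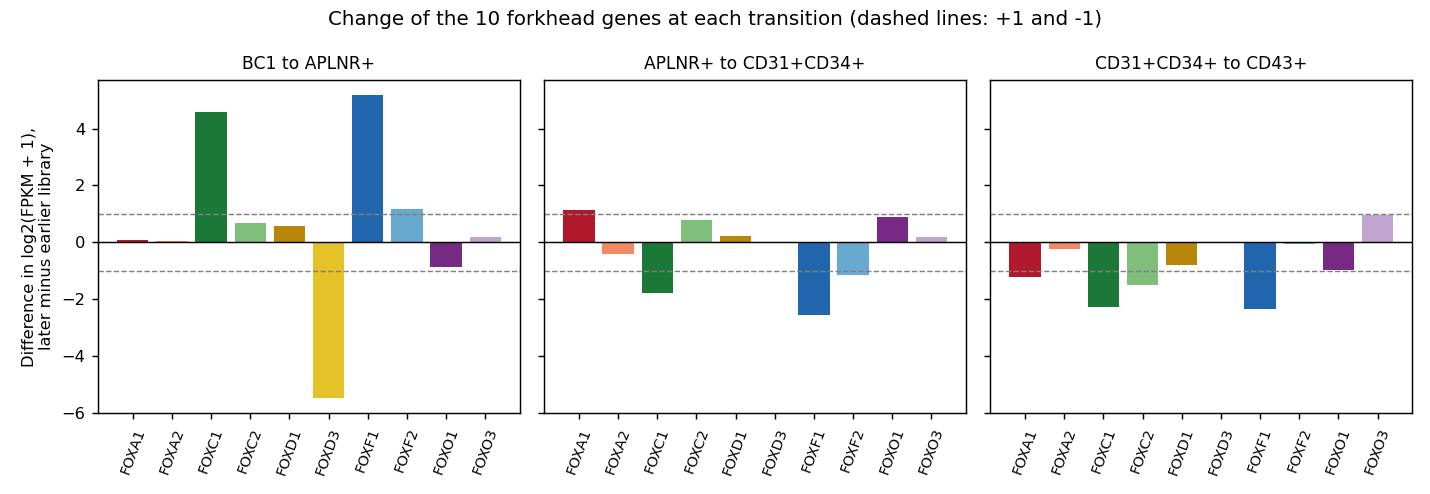
Difference in log2(FPKM + 1) between consecutive libraries (vertical axis, later minus earlier) for each of the 10 genes (horizontal axis), with dashed lines at the differences of 1 and -1 that were counted. FOXD3 fell and FOXC1 and FOXF1 rose by over 4 log2 units at the first step, and FOXO1 and FOXO3 stayed just inside the dashed lines at the last.

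FOXD3 was a gene of the undifferentiated cells. It lies on chromosome 1 (63323041 to 63325126, plus strand, GRCh38) as a single exon, and its levels were 46.2 FPKM in BC1 cells, 0.0511 FPKM in APLNR+ cells, 0.0234 FPKM in HEPs and 0 FPKM in HPCs. These levels rest on 1645, 2, 1 and 0 fragments, so it was high in BC1 cells and at or under the level of 3 fragments in the other libraries. The BC1 level was 904-fold higher than that of APLNR+ cells (interval 250 to 7470) and at least 595-fold higher than the 0.0776 FPKM that 3 fragments would give in HPCs. Its difference at the first step was -5.49 log2 units.

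The antisense transcript FOXD3-AS1 overlaps FOXD3 on the other strand and had a like course, with 252 FPKM in BC1 cells, 2.47 FPKM in APLNR+ cells and 0 FPKM in HEPs and HPCs. In the GENCODE 29 annotation the transcripts share 179 exonic bases, which is 8.58% of the FOXD3 exon and 14.8% of the FOXD3-AS1 exons. The library kit does not keep strand, so reads from those bases could have been counted for either gene. The RefSeq start of FOXD3 lies before this exon, and any bases shared there were not counted. The FOXD3 promoter below lies within the FOXD3-AS1 locus (63320884 to 63324441) and is shown for that reason. It covers the 250 bases before and 50 bases after the RefSeq start on the plus strand (chr1:63322317-63322616, GRCh38.p14), and capitals mark each CG.
FOXD3: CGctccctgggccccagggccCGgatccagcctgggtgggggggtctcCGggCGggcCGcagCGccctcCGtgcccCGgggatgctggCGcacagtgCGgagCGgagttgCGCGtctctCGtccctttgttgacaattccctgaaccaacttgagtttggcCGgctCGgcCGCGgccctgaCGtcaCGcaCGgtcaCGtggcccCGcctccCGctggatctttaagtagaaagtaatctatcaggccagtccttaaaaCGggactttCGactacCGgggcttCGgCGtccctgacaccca

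This window had 66.3% GC and 29 CG dinucleotides, more than 75.8% of the 35116 promoter windows in the RefSeq table, whose median was 14. Windows were found for 7 of the 10 genes (FOXA1, FOXC1, FOXD1, FOXD3, FOXF2, FOXO1 and FOXO3), and were not found for FOXA2, FOXC2 and FOXF1. The first-listed window of these genes (FOXO3 has 4) held between 16 (FOXD1) and 47 (FOXO3) CG dinucleotides. A forkhead-type motif, GTAAACA, read on both strands, was in none of the 10 windows of the 7 genes, while 3.42% of all windows had it.

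Of 16 pluripotency genes, all past the filter, 2 rose and 10 fell at the first step with a median of -1.50, 9 fell at the second and 4 at the last. SOX2, a core pluripotency factor, had a course near that of FOXD3 with 172, 0.766, 0 and 0 FPKM, while POU5F1 had 1997, 573, 1.87 and 0.235 FPKM. Among 11022 protein-coding genes outside the forkhead family at 5 FPKM or more, the nearest to FOXD3 by root mean squared difference of log2(FPKM + 1) over the 4 libraries was SOX3, a factor of pluripotent and neural cells, with 40.0, 0.0748, 0 and 0 FPKM and a distance of 0.10. HAS3 (0.44) and IDO1 (0.48) followed, and the median distance over all candidates was 3.62.

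FOXD3 is also known from the neural crest. Of 14 neural crest genes, 11 passed the filter, of which 5 rose and 3 fell at the first step, 2 rose and 1 fell at the second and 7 fell at the last. The neural crest markers SOX10, PAX3 and TFAP2B summed to 2.42 FPKM in BC1 cells, 1.51 in APLNR+ cells, 4.25 in HEPs and 0.572 in HPCs, with only SOX10 at 1 FPKM or more in any of them. The epithelial markers CDH1 and EPCAM summed to 153, 8.65, 2.19 and 1.53 FPKM in the same order and so fell along with FOXD3, and their part in its course was not tested.

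FOXD1, the relative of FOXD3 in stromal mesenchyme, stayed low. The gene lies on chromosome 5 (73444827 to 73448527, minus strand) and had 0.378 FPKM in BC1 cells, 1.07 in APLNR+ cells, 1.38 in HEPs and 0.356 in HPCs, from 15, 45, 64 and 15 fragments. The middle populations were higher than the outer ones, by 2.82-fold (1.54 to 5.44) at the first step and 3.88-fold (2.19 to 7.34) at the last, although no step reached 1 on the log2(FPKM + 1) scale. APLNR+ cells and HEPs did not differ beyond counting error (45 against 64 fragments, ratio interval 0.871 to 1.94). The transcript FOXD1-AS1 lies within the FOXD1 locus and was listed at 0.238 FPKM in HPCs and at most 1.51e-05 FPKM elsewhere. Without strand, reads of any shared bases could have been counted for either gene, which bears on the low FOXD1 level in HPCs. FOXD1 was among 6 mesenchymal genes that the study itself picked, so its course is not independent of that choice.

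**Figure D3:**
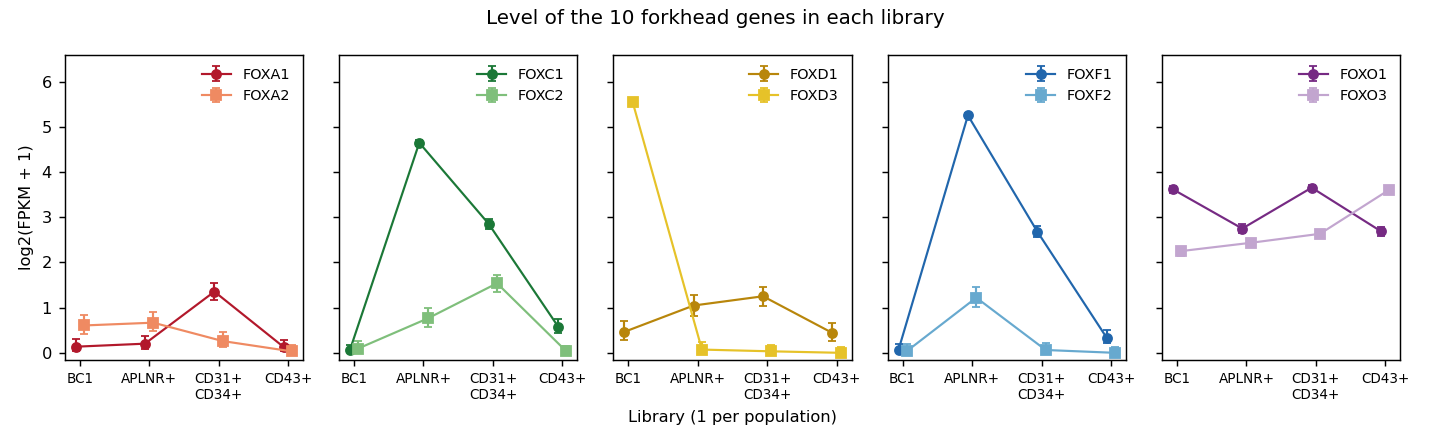
Level of each of the 10 genes on the log2(FPKM + 1) scale (vertical axis) in each library (horizontal axis, 1 library per population), paired by subfamily in 5 panels. Bars are 95% exact Poisson intervals from the recovered fragments and cover counting error only. FOXD3 is high only in BC1 cells, FOXC1 and FOXF1 peak in APLNR+ cells, and the FOXO1 and FOXO3 lines cross between HEPs and HPCs.

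FOXF1, FOXC1 and FOXF2 were the genes of the APLNR+ mesoderm cells. FOXF1, which patterns splanchnic mesoderm and the vessels that grow in it, lies on chromosome 16 (86510527 to 86515418, plus strand). Its levels were 0.0468 FPKM in BC1 cells, 37.2 in APLNR+ cells, 5.42 in HEPs and 0.258 in HPCs, from 3, 2565, 410 and 18 fragments. It therefore appeared in APLNR+ cells and came down over the next 2 steps to a level that still stood above that of BC1 cells (5.51-fold, 1.61 to 29.2). The ratio of APLNR+ to BC1 cells was 794 (271 to 3850), and FOXF1 fell 6.86-fold (6.18 to 7.63) into HEPs and 21.0-fold (13.1 to 35.8) into HPCs. On the log2 scale the 3 differences were 5.19, -2.57 and -2.35.

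FOXF2, a close relative that acts in the mesenchyme of gut and palate, lies on chromosome 6 (1389834 to 1395597, plus strand) and was also highest in APLNR+ cells, at a much lower level. It had 0.0263, 1.33, 0.0444 and 0 FPKM in BC1 cells, APLNR+ cells, HEPs and HPCs, from 1, 55, 2 and 0 fragments. APLNR+ cells alone were clear of the level of 3 fragments. The APLNR+ level was 50.5 times that of BC1 cells (8.70 to 2030), 30.0 times that of HEPs (7.92 to 254) and at least 18.2-fold higher than the 0.0733 FPKM that 3 fragments would give in HPCs. FOXF1 was 27.9 times FOXF2 in APLNR+ cells (21.4 to 37.2) and 122 times in HEPs (33.6 to 1010).

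FOXC1, which acts in mesoderm of the somites, heart and vessels, is a single exon on chromosome 6 (1609972 to 1613897, plus strand). It had 0.0416 FPKM in BC1 cells, 24.1 in APLNR+ cells, 6.23 in HEPs and 0.496 in HPCs, from 3, 1872, 531 and 39 fragments. Like FOXF1 it peaked in APLNR+ cells, but more of it was left in HEPs, where it was second only to FOXO1 among the 10 genes. The ratio of APLNR+ to BC1 cells was 580 (198 to 2810), and the level fell 3.87-fold (3.51 to 4.27) and then 12.6-fold (9.07 to 17.9). The differences on the log2 scale were 4.59, -1.80 and -2.27.

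FOXC2 took another course. This relative of FOXC1, known for lymphatic vessels and their valves, lies on chromosome 16 (86567251 to 86569728, plus strand) and had 0.0687, 0.694, 1.91 and 0.0211 FPKM in BC1 cells, APLNR+ cells, HEPs and HPCs, from 3, 33, 98 and 1 fragments. Its highest level was in HEPs and not in APLNR+ cells, with 2.75-fold more in HEPs (1.84 to 4.21). FOXC2 fell by 1.51 log2 units into HPCs, where a single fragment was left (ratio 90.4, 15.8 to 3610). FOXC1 was 34.7 times FOXC2 in APLNR+ cells (24.6 to 50.6) and 3.26 times in HEPs (2.63 to 4.09), and these intervals did not overlap.

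**Figure D4:**
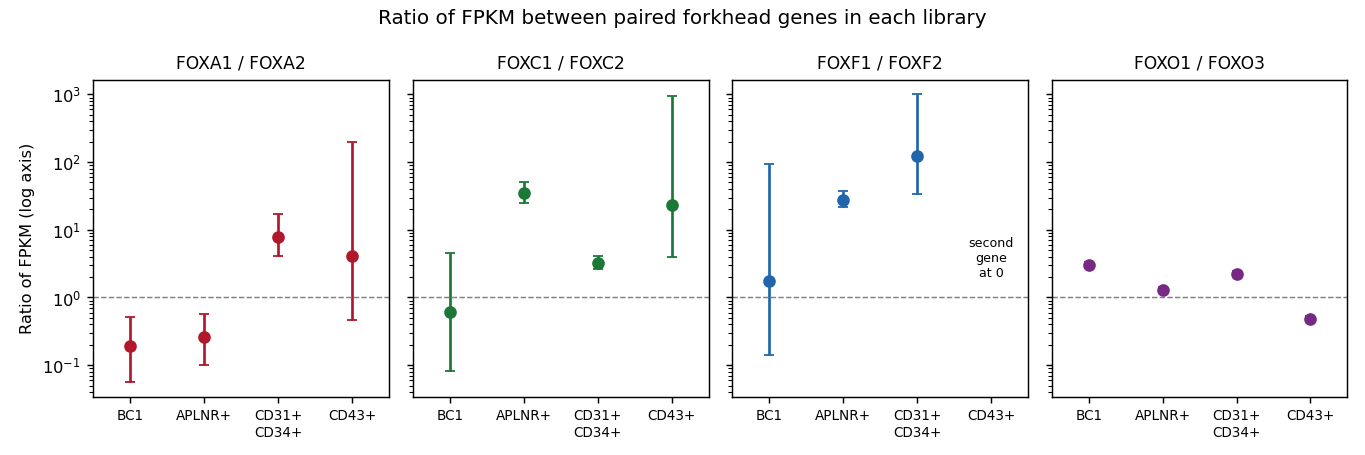
Ratio of FPKM between the first and second gene of 4 subfamily pairs (vertical axis, log scale) in each library (horizontal axis, 1 library per population), with 95% Clopper-Pearson intervals from recovered fragments and a dashed line at equal levels. FOXA1 to FOXA2 and FOXO1 to FOXO3 change sides of the line, the latter in HPCs, and FOXF2 was listed at 0 in HPCs.

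FOXF1 and FOXC2 are neighbours on chromosome 16, with FOXL1 beyond FOXC2 and the long noncoding RNA FENDRR on the other side of FOXF1. FENDRR, which is read from the opposite strand and starts 1427 bases from FOXF1, had 0.0789 FPKM in BC1 cells, 3.65 in APLNR+ cells, 0 in HEPs and 0.0511 in HPCs. Its level in APLNR+ cells was at least 80.2-fold higher than the 0.0455 FPKM that 3 fragments would give in HEPs, whereas FOXF1 kept 5.42 FPKM there. FOXL1, a gene of gut mesenchyme 6639 bases beyond FOXC2, had 0.0150, 0.0686, 1.36 and 0.0137 FPKM and so peaked in HEPs as FOXC2 did. MTHFSD, which lies between FOXF1 and FOXC2 and is no forkhead gene, had 6.44, 7.57, 12.6 and 11.5 FPKM. It too was highest in HEPs, but it stayed near that level in HPCs, where FOXC2 and FOXL1 fell. Within this cluster the genes on the FENDRR side were highest in APLNR+ cells and those on the FOXL1 side in HEPs.

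A second cluster on chromosome 6 holds FOXQ1, FOXF2 and FOXC1, and all 3 were highest in APLNR+ cells. FOXQ1, an epithelial forkhead gene, reached only 0.706 FPKM there. GMDS, which encodes an enzyme of GDP-fucose synthesis 9908 bases from FOXC1, had 44.5, 16.5, 19.3 and 12.3 FPKM and was highest in BC1 cells. The promoters of FOXF2 (chr6:1389326-1389625) and FOXC1 (chr6:1609665-1609964) are both on the plus strand of GRCh38.p14. They are given because both genes rose at the first step and fell at the second. FOXC1 also fell at the last step, where FOXF2, at 0.0444 FPKM in HEPs, was too low to fall by 1. Capitals mark each CG.
FOXF2: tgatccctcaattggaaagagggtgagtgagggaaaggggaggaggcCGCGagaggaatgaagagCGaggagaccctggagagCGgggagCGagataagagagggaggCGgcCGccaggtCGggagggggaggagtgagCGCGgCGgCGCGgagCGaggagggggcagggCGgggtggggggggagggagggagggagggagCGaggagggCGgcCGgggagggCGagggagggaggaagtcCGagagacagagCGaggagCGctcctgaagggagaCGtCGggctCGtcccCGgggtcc
FOXC1: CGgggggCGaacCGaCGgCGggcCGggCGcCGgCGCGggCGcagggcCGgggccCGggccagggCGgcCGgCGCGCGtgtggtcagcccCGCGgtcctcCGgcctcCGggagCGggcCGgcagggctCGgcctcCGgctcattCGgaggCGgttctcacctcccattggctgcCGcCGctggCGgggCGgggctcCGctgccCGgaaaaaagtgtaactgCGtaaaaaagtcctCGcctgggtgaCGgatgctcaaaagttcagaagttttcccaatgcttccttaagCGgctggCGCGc

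FOXF2 had 26 and FOXC1 40 CG dinucleotides in this window, at 71.0% and 72.7% GC. The letters CCAAT, read on both strands, stood at positions 165 and 273 of the FOXC1 window and at position 11 of the FOXF2 window, counted from 1 at the 5′ end, and 34.6% of all windows had them. TATAAA was in neither window, against 11.5% of all windows.

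**Figure D5:**
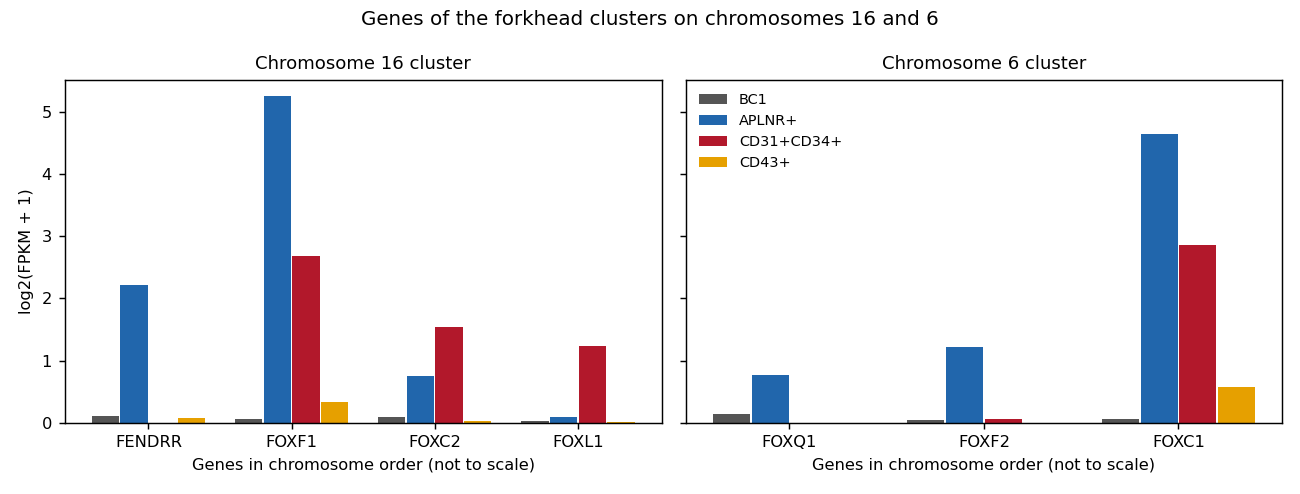
Levels on the log2(FPKM + 1) scale (vertical axis) of genes in the forkhead clusters of chromosomes 16 and 6 (horizontal axis, in chromosome order and not to scale), with a colour for each of the 4 libraries. FENDRR, FOXF1, FOXQ1, FOXF2 and FOXC1 are highest in APLNR+ cells, and FOXC2 and FOXL1 in HEPs.

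Genes of the mesoderm in which these factors act moved at the same steps. Of 16 lateral plate and splanchnic mesoderm genes, 12 passed the filter, of which 11 rose and none fell at the first step (median 5.30), 1 rose and 8 fell at the second (median -1.90) and 8 fell at the last (median -2.16). HAND1, a factor of lateral plate and extraembryonic mesoderm, had 0.309, 357, 5.57 and 0.796 FPKM, and GATA6, a factor of heart and endoderm, had 0.0434, 363, 57.8 and 12.3 FPKM. The paraxial mesoderm list was more mixed, with 3 of 7 genes rising and 2 falling at the first step, 2 rising and 3 falling at the second and 3 falling at the last. MESP2, a segmentation factor, had 0.432, 64.7, 2.72 and 0.256 FPKM, and TBX6 had 2.21, 17.5, 4.08 and 3.47 FPKM. LFNG went the other way at the first and second steps, with 18.9, 1.72, 31.8 and 1.86 FPKM. Markers of smooth muscle and stroma (ACTA2, TAGLN, COL1A1 and PDGFRB) summed to 164, 148, 313 and 63.9 FPKM, highest in HEPs as FOXC2 was, and their part in the FOXC2 level was not tested. From APLNR+ cells to HEPs, COL1A1 (22.9 to 184 FPKM) and ACTA2 (2.19 to 48.3 FPKM) rose, while PDGFRB went from 5.50 to 6.69 FPKM and TAGLN from 117 to 74.7 FPKM, with its highest level in BC1 cells.

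The genes whose levels came nearest to FOXF1 over the 4 libraries were HLX, a homeobox gene of visceral mesenchyme and blood (distance 0.29), MSX2, a homeobox target of BMP signals (0.35), and SLCO2A1, a prostaglandin transporter (0.45). HLX had 0.391, 34.6, 4.32 and 0.541 FPKM. FOXC1 was nearest to PLPP4 (0.27), MSX2 (0.28) and RBM24 (0.39), against medians of 2.93 and 2.77 over all candidates, and MSX2 stood near both with 0.307, 31.2, 6.98 and 0.765 FPKM.

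FOXC factors are known to bind with ETS factors at a joint element in endothelial genes. Of 14 genes with such an element or with endothelial expression, 13 passed the filter, of which 2 rose and 3 fell at the first step, where FOXC1 rose, while 11 rose and none fell at the second (median 3.74), where FOXC1 fell and FOXC2 had its highest level. At the last step 2 rose and 9 fell. CDH5, the endothelial cadherin, had 0.523, 0.663, 224 and 9.38 FPKM, and TIE1, an endothelial receptor, had 6.44, 1.17, 226 and 70.8 FPKM. PECAM1 is both in this list and a marker by which HEPs were sorted, so its own rise there was set by the sort. HEPs were sorted as endothelial cells, so the sort also favoured a rise of the other genes with endothelial expression. The part of the FOXC genes in these changes was not tested.

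FOXA1 and FOXA2, the endoderm factors, were low throughout and did not peak together. FOXA2 lies on chromosome 20 (22581005 to 22585455, minus strand) and had 0.522 FPKM in BC1 cells, 0.588 in APLNR+ cells, 0.198 in HEPs and 0.0219 in HPCs, from 22, 27, 10 and 1 fragments. It reached 1 FPKM in no library, BC1 and APLNR+ cells did not differ beyond counting error (1.13-fold, 0.618 to 2.08), and HEPs were below APLNR+ cells (2.98-fold, 1.40 to 6.89). FOXA1 lies on chromosome 14 (37589984 to 37596059, minus strand) and had 0.0985, 0.151, 1.56 and 0.0912 FPKM in the same order, from 5, 8, 94 and 5 fragments. HEPs alone stood out, 10.3-fold (5.03 to 24.6) above APLNR+ cells and 17.1-fold (7.06 to 53.8) above HPCs.

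The order of the pair changed with it. FOXA2 was above FOXA1 in BC1 cells (5.30-fold, 1.96 to 17.9) and in APLNR+ cells (3.90-fold, 1.72 to 9.93), whereas FOXA1 was 7.88-fold above FOXA2 in HEPs (4.10 to 17.0). FOXA3, the third member of the subfamily and a factor of liver, was higher than both in each library, with 13.6, 10.1, 5.50 and 1.74 FPKM, and fell by 1.25 log2 units at the last step. LINC00261, a noncoding RNA next to FOXA2, did not exceed 0.000499 FPKM. TTC6 overlaps FOXA1 and AL121722.1 overlaps FOXA2, and reads in the overlaps cannot be told apart without strand, but these genes did not exceed 0.0282 and 0.183 FPKM.

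Of 20 endoderm genes, 17 passed the filter, of which 11 rose and 2 fell at the first step (median 1.96), 2 rose and 14 fell at the second (median -1.86) and 1 rose and 7 fell at the last. CER1, an inhibitor of Nodal and BMP signals, had 2.50, 2991, 0.0905 and 0.0497 FPKM. The list shares GATA6, EOMES and others with mesoderm. The endoderm markers SOX17, AFP, TTR, APOA1, HNF4A and ALB summed to 50.7, 121, 38.0 and 21.9 FPKM, with 4, 6, 4 and 3 of the 6 at 1 FPKM or more and none at 0. Their sum was lower in HEPs, where FOXA1 was highest, than in APLNR+ cells. In HEPs ALB was at 18.0, SOX17, which hemogenic endothelium also expresses, at 11.8 and APOA1 at 5.77 FPKM. TTR was at 1.97, HNF4A at 0.194 and AFP at 0.188 FPKM there. The part of endoderm cells in the FOXA1 level was not tested.

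FOXH1, the forkhead cofactor through which SMAD proteins answer Nodal and activin, is no member of the 10 but acts upstream of endoderm and mesoderm genes. It had 36.0 FPKM in BC1 cells, 37.6 in APLNR+ cells, 8.76 in HEPs and 7.58 in HPCs, and so was level over the first step (1.04-fold, 0.976 to 1.12) and fell by 1.99 log2 units at the second. EOMES, a T-box factor of the same pathway, had 0.244, 205, 0.280 and 0 FPKM. Of 6 genes of this group, 4 rose at the first step and 4 fell at the second.

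FOXO1 and FOXO3 were the only members of the 10 at 1 FPKM or more in every library. FOXO1 lies on chromosome 13 (40469953 to 40666597, minus strand) and had 11.3 FPKM in BC1 cells, 5.73 in APLNR+ cells, 11.6 in HEPs and 5.44 in HPCs, from 1205, 665, 1481 and 635 fragments. It alternated between a high level, in BC1 cells and HEPs, and a low level, in APLNR+ cells and HPCs. The steps were 1.97-fold lower (1.79 to 2.17), 2.03-fold higher (1.85 to 2.22) and 2.13-fold lower (1.94 to 2.34). BC1 cells and HEPs did not differ beyond counting error (1.03-fold, 0.952 to 1.11), nor did APLNR+ cells and HPCs (1.05-fold, 0.942 to 1.17). On the log2(FPKM + 1) scale the differences were -0.87, 0.91 and -0.97, each just short of the value counted.

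FOXO3, which keeps adult blood stem cells quiescent, lies on chromosome 6 (108559835 to 108684774, plus strand). Its levels were 3.76 FPKM in BC1 cells, 4.41 in APLNR+ cells, 5.21 in HEPs and 11.2 in HPCs, from 517, 658, 857 and 1689 fragments. The order was that of differentiation, with small steps at first (1.17-fold, 1.04 to 1.32, and 1.18-fold, 1.07 to 1.31) and a larger one from HEPs to HPCs (2.16-fold, 1.98 to 2.34), which was 0.98 on the log2(FPKM + 1) scale. HPCs were 2.98-fold above BC1 cells (2.70 to 3.30). FOXO1 was thus above FOXO3 in BC1 cells (ratio interval 2.70 to 3.33) and FOXO3 2.06-fold above FOXO1 in HPCs (1.88 to 2.26).

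The processed pseudogene FOXO3B on chromosome 17 shares 64.2% of its 50-base words with FOXO3 transcripts, and 15.7% of the words of FOXO3 are shared with it, so fragments can be split between them. FOXO3B was listed at 6.18, 7.22, 4.55 and 3.77 FPKM, lower in HPCs than in BC1 cells. With its fragments added to those of FOXO3, the 3 steps were 0.19, 0.03 and 0.85 on the log2 scale, against 0.18, 0.20 and 0.98 without them. The small second step of FOXO3 was thus mostly lost when the fragments were added. Between the 10 genes themselves sharing was slight: 2 of 45 pairs, FOXC1 with FOXC2 and FOXF1 with FOXF2, had any 50-base word in common, at most 20.

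FOXO4, the third FOXO gene, had 11.9, 5.40, 14.9 and 19.7 FPKM. It fell by 1.01 log2 units at the first step and rose by 1.31 at the second, the steps at which FOXO1 was lower and higher, and like FOXO3 it was highest in HPCs. The 3 genes nearest to FOXO1 in level were SMAP1 (0.16), DCP1B (0.16) and WASL (0.17), and those nearest to FOXO3 were RNFT1 (0.14), PHF11 (0.15) and UBR1 (0.15), with medians of 1.49 and 1.74 over all candidates.

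Of 26 genes known as FOXO targets, 25 passed the filter. At the first step 4 rose and none fell, at the second 9 rose and none fell (median 0.69), and at the last 7 rose and 8 fell (median -0.31). TXNIP, an inhibitor of thioredoxin and of glucose uptake, had 1.76, 2.05, 218 and 201 FPKM. KLF2, a factor of quiescence and flow response, had 0.202, 0.796, 51.4 and 8.52 FPKM, and GADD45A, a gene of the DNA damage response, had 13.7, 144, 155 and 194 FPKM. At the first step, where 4 of these genes rose and none fell, FOXO1 was 1.97-fold lower. At the second, where 9 rose, FOXO1 was 2.03-fold higher, and at the last FOXO1 was lower and FOXO3 higher. The part of the FOXO genes in these changes was not tested.

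Of 25 genes of the PI3K-AKT route and of other FOXO regulators, all past the filter, 2 rose and 1 fell at the first step, 3 rose and 2 fell at the second and 1 rose and 3 fell at the last. AKT1, a kinase that phosphorylates FOXO proteins, had 47.1, 167, 141 and 110 FPKM. SGK1, another such kinase, had 8.60, 3.26, 42.9 and 2.35 FPKM and was high in HEPs, and PIK3CB, a catalytic subunit of PI3K, had 22.2, 20.7, 26.4 and 140 FPKM and was high in HPCs. These are transcript levels, and the location of FOXO proteins in the cell was not measured.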

How the data were processed

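Total RNA of 4 sorted or undifferentiated BC1 populations was sequenced from TruSeq libraries, which do not keep strand. The authors deposited a table of FPKM values per gene, and the submitters' processing notes name BWA, Bowtie, RSEM and hg19 without a role, while 99.8% of the rows whose gene version is in GENCODE 29 have its GRCh38 position. Rows of a gene ID were summed, giving 58274 gene IDs. Values were compared as log2(FPKM + 1), over 17137 genes at 1 FPKM or more in some library, and a change of at least 1 was counted. With 1 library per population no test was made. Fragments were recovered from the steps of low FPKM values and GENCODE transcript lengths, and intervals are exact Clopper-Pearson at 95%. For a fold against a value of 0, the level that 3 fragments would give was used as a bound, and elsewhere 0 was kept. Fragment recovery and calls were tested on simulated data made from genes with a single annotated transcript. The lengths taken for genes with several transcripts were not tested. Every column of the table was used.

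The 10 genes, the lists and the tests were chosen with earlier results of these data known, and 9 genes stand in more than 1 list. Named genes were all 10 members, other forkhead genes at 10 FPKM or more, forkhead-locus transcripts, and from each list up to 4 genes with the greatest change among those at 10 FPKM or more. FOXL1, FOXQ1, MTHFSD and GMDS were named for their position beside a member, after their values were seen. Promoter windows are from RefSeq (GRCh38.p14). Protein sequences were not used here. Python 3.11.15, pandas 2.3.3, numpy 2.4.6 and scipy 1.17.1 were used.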

Additional observations from a re-analysis of the deposited data

How the results depend on the processing

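With 1 library per population the values hold counting error and no spread between cultures, so small differences such as those of FOXO1 and FOXO3 have no replicate check. No paired analysis was possible because each population had 1 library and no result comes from a test. Of the 10 genes, all that rose or fell kept that call under upper-quartile scaling and equal totals. FOXA1 at the second step came nearest to losing it, at 1.11 under upper-quartile scaling. The direction of these changes was not put to a test. A smaller pseudocount (0.1 or 0.01) can only enlarge a difference, and the scaling factors were too alike to reverse a change of at least 1. The count of changed genes at the first step (4) lay between 3 and 6 under all 8 alternatives. At the second step (4) it was 6 with a pseudocount of 0.1 or 0.01, with FOXC2 and FOXO1 added as rising, 1 when a change of at least 2 was asked for and 2 of the 5 genes left by a filter of 5 FPKM. At the last step (4) it was 7 with a pseudocount of 0.1, adding FOXD1, FOXO1 and FOXO3, and 9 with 0.01, adding FOXD3 and FOXF2 as well, and 2 with a change of at least 2 or, of 5 genes, with a filter of 5 FPKM. Upper-quartile scaling, under which the median of all genes at the first step was -0.11, took FOXO1 to -1.01 at the first step and FOXO3 to 1.06 at the last, past the value counted, and equal totals took FOXO1 to -1.07 at the last. Pseudocounts of 0.1 and 0.01 took FOXO3 to 1.09 and 1.11 at the last step, and FOXO1 to 1.01 and 1.02 at the second and -1.08 and -1.09 at the last, so that 1 of the 10 genes, FOXO3, rose from HEPs to HPCs under 3 alternatives. Adding FOXO3B fragments to FOXO3, an alternative chosen after seeing the data, changed no count. Over all genes 18.5%, 24.4% and 21.2% changed at the 3 steps, against 5.43%, 7.18% and 6.23% with no filter, where more genes are tested. With a pseudocount of 0.1 these shares were 28.7%, 35.9% and 31.5%, and with a filter of 5 FPKM 18.2%, 26.2% and 22.7%. No share of all genes was computed for a pseudocount of 0.01 or a change of at least 2. Of the other forkhead genes 8, 7 and 4 changed, against 2, 1 and 1 by at least 2. With profiles centred on their own mean, 4 of the 15 nearest genes were again among the nearest.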

Other observations

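Beyond the 10 genes, 39 other forkhead genes had a row, of which 19 passed the filter and 20 stayed under 1 FPKM in every library. Of the 19, 3 rose and 5 fell at the first step, 4 rose and 3 fell at the second and 1 rose and 3 fell at the last, with medians of 0.07, 0.15 and -0.19 on the log2 scale. FOXN2 was the gene that rose at the last step, with 5.02 FPKM in BC1 cells, 4.11 in APLNR+ cells, 7.49 in HEPs and 52.5 in HPCs, which made it the highest forkhead gene of the HPC library (7.02-fold above HEPs, counting interval 6.54 to 7.54). FOXP4 took that place in APLNR+ cells, with 8.08, 51.5, 21.7 and 12.1 FPKM, above FOXF1 at 37.2 FPKM.

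FOXN3, a repressor of the cell cycle, had 37.6, 14.6, 23.3 and 11.7 FPKM, high and low in the same libraries as FOXO1, and fell by 1.31 log2 units at the first step. FOXM1, a driver of mitotic genes, had 31.5, 48.2, 33.5 and 20.4 FPKM and was lowest in HPCs, where FOXO3 was highest. FOXK1 and FOXK2, which repress autophagy genes that FOXO factors activate, had 2.22, 5.58, 10.4 and 9.20 FPKM and 23.5, 45.0, 38.2 and 35.6 FPKM. FOXJ3 had 11.3, 12.9, 12.5 and 10.02 FPKM. The 9 genes between 1 and 10 FPKM had highest levels from 1.25 to 7.66 FPKM.

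Of 14 Hedgehog pathway genes, 9 passed the filter. At the first step 2 rose and 1 fell, at the second 1 rose and 1 fell and at the last 5 fell (median -1.07). PTCH1, the receptor and itself a target of the pathway, had 2.60 FPKM in BC1 cells and 17.4 FPKM in APLNR+ cells, where FOXF1 was highest, and then 9.05 and 11.3 FPKM. GLI2, a transcription factor of the pathway, had 41.9, 78.7, 12.7 and 0.611 FPKM and fell over the steps at which FOXF1 fell. SUFU, with 4.21, 9.59, 32.7 and 16.1 FPKM, rose at the second step, where FOXF1 fell. SMO had 34.3, 37.7, 24.3 and 20.4 FPKM and neither rose nor fell at any step. The part of the Hedgehog pathway in the FOXF1 level was not tested. Of 13 noncoding RNAs and pseudogenes of forkhead loci, 12 had a row (FOXF2-DT was not analysed here) and 6 passed the filter, of which 4 rose and 1 fell at the first step, 4 fell at the second and none changed at the last. FOXD2-AS1 had 0.0903, 1.37, 3.68 and 5.87 FPKM, FOXP4-AS1 had 0.945, 3.28, 0.600 and 1.02 FPKM, and LINC00917, upstream of FOXF1, had 0.0810, 1.25, 0.0181 and 0 FPKM. FOXC2-AS1 and FOXCUT were listed at 0 in every library, and FOXO1B, LINC01082 and LINC01612 stayed under 1 FPKM. The neural markers PAX6 and SOX1 summed to 0.380 FPKM in BC1 cells and stayed under 0.01 FPKM elsewhere.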
